A study of Homo sapiens with 18 samples.

Results

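Of the 39496 genes counted by RNA-seq in UM-UC-3 and T24 cells, 33 belong to the protein-folding machinery of the endoplasmic reticulum (ER) and to the unfolded protein response, and their RNA levels are described here. The 33 genes were taken as a list by their function and found by symbol in the count table, and the list was drawn up with earlier results of these data known. UM-UC-3 and T24 are established human bladder cancer cell lines labelled as wild type, UM-UC-3 grown in MEM and T24 in RPMI-1640, and each was transfected with the control siRNA siNC or with siACAT1-1 or siACAT1-2, which both target ACAT1, an enzyme that joins and splits acetoacetyl-CoA in mitochondria. Each of the 6 groups had 3 libraries numbered as replicates 1 to 3, the labels call them biological replicates from independent experiments, and what else a number marks is not given in the sources used here. A replicate is therefore a repeat of the transfection in the same cell line, and the 2 siRNAs limit the model to a transient loss of ACAT1 RNA.

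The ER folds secreted and membrane proteins. The Hsp70 chaperone BiP, encoded by HSPA5, binds unfolded chains, lectin chaperones hold glycoproteins, and protein disulfide isomerases form their disulfide bonds, while proteins that fail to fold are moved to the cytosol for ER-associated degradation. When unfolded proteins build up, the sensors IRE1 (encoded by ERN1), PERK (EIF2AK3) and ATF6 signal to the nucleus, IRE1 by splicing the RNA of the transcription factor XBP1, PERK by raising translation of ATF4, and ATF6 by being cut at the Golgi. ATF6 and spliced XBP1 act through short promoter elements and induce chaperone and degradation genes. RNA-seq counts per gene do not show splicing of XBP1, cleavage of ATF6 or phosphorylation of PERK.

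The promoter elements are shown because they are the known link between the sensors and the chaperone genes. RefSeq promoters (GRCh38.p14, 250 bases before to 50 bases after a gene's start) were matched for 29 of the 33 genes, and 4 genes (PDIA3, DERL1, DERL3 and SEC24D) had no entry. The ER stress element was searched as CCAAT, then any 9 bases, then CCACG, and the ER stress element II as ATTGG, then any 1 base, then CCACG, on both strands. The upstream 250 bases of the HSPA5 promoter (chr9:125241344-125241593, minus strand, 5′ to 3′) hold 1 exact match to the ER stress element, whose conserved blocks are in capitals. Elements that differ from the searched letters were not looked for in any promoter.

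HSPA5: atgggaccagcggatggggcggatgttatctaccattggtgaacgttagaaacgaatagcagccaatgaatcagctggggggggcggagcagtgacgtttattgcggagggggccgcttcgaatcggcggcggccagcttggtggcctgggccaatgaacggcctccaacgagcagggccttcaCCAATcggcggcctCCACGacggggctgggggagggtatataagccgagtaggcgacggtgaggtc

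For 5 other genes, the element is shown with 25 bases on each side, on the strand of the gene, again with the blocks in capitals. CALR (chr19:12938359-12938427, plus strand) and XBP1 (chr22:28800578-28800646, minus strand) hold the ER stress element, in CALR on the opposite strand. HERPUD1 (chr16:56932000-56932060, plus strand), SDF2L1 (chr22:21642089-21642149, plus strand) and HYOU1 (chr11:119057249-119057309 and chr11:119057355-119057415, minus strand) hold the ER stress element II, in SDF2L1 and HYOU1 on the opposite strand.
CALR: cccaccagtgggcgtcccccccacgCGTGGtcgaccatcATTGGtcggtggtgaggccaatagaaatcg
XBP1: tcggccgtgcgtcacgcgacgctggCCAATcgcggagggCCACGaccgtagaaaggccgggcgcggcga
HERPUD1: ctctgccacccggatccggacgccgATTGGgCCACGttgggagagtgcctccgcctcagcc
SDF2L1: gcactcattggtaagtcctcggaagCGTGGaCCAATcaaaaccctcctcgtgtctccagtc
HYOU1, nearer the start: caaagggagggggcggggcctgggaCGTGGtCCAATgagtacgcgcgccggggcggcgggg
HYOU1, farther from the start: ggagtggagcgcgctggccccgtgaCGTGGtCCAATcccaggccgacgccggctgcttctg

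The ER stress element was found in promoters of 7 of the 29 matched genes (HSPA5, HSP90B1, CALR, CANX, PDIA6, CRELD2 and XBP1). Over all 27305 genes with a promoter, these 7 included, it was found for 25 (0.0916%). The ER stress element II was found for 3 of the 29 (HYOU1, HERPUD1 and SDF2L1) and for 19 of all genes (0.0696%). The letters TGACGTGG, the core of an element read by XBP1 and ATF6, were found for 1 of the 29 (HYOU1, overlapping its farther ER stress element II) and for 253 of all genes (0.927%). The promoters of MANF, EDEM2, DERL2, SEC23B and SDF4, which are described with the knockdown below, held none of these letters. A match describes the sequence and is not a measured binding site.

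ACAT1 RNA fell in all knockdown groups. Its mean ± SD (n = 3) was 46.0 ± 1.68 RPKM (reads per kilobase of exon, scaled to the counted reads of the library) with siNC in UM-UC-3 cells, 3.05 ± 0.70 with siACAT1-1 and 2.16 ± 0.54 with siACAT1-2, and in T24 cells it was 16.2 ± 1.399, 1.29 ± 0.15 and 0.79 ± 0.12. The mean of the 4 knockdown comparisons was a log2 fold change of -4.09 ± 0.12 (SE), and knockdown was deeper with siACAT1-2 than with siACAT1-1 (log2 difference -0.62 ± 0.15, adjusted p = 0.034). The libraries held between 25163490 and 34417230 counted reads. Of the markers checked, the urothelial UPK1B and UPK3A, the basal KRT5 and the epithelial CDH1 stood at no more than 0.06 RPKM in any library. UPK1A, UPK3B and GATA3 reached 0.44, 0.12 and 0.37 RPKM, and UPK2 ran from 0.152 to 0.660. PPARG, FOXA1, KRT19 and EPCAM reached 6.23, 2.03, 31.8 and 2.70 RPKM in T24 cells and 0.45, 0.22, 0.17 and 0.11 in UM-UC-3 cells. KRT8, KRT18 and VIM were high in both lines. KRT7 was high in T24 cells (81.1 to 371 RPKM) and low in UM-UC-3 cells (1.94 to 7.22). CDH2 and FN1 reached 17.9 and 33.8 RPKM in T24 cells and 4.43 and 1.02 in UM-UC-3 cells. Of other cell types, the leukocyte genes PTPRC and CD3E and the endothelial PECAM1 and VWF reached at most 0.09 RPKM. The macrophage marker CD68 was present in both lines (15.7 to 216 RPKM). Of the fibroblast genes COL1A1 ran from 0.929 to 1.62 RPKM over both lines, and PDGFRB and DCN reached 0.32 and 0.04.

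Libraries of 1 replicate number held the largest share of reads from these genes within each cell line, by a narrow margin in T24 cells. The 33 genes held 3.20% of all counted reads in replicate 3 of UM-UC-3 with siNC, 2.63% in replicate 3 with siACAT1-1 and 1.75% in replicate 3 with siACAT1-2, against 1.26% to 1.54% in the other 6 UM-UC-3 libraries. In T24 cells replicate 2 held the most in each group (0.973%, 0.965% and 1.07%), against 0.719% to 0.952% in the other 6 libraries. HSPA5 alone gave between 4.34% and 19.4% of the reads of the 33 genes in UM-UC-3 cells. Each comparison was therefore fitted without the replicate number and with it as a block. The block was set within each cell line, except in the comparison between the lines, where both lines shared it. Genes called in the mean of the knockdown comparisons and between the lines were fitted again. These fits left out replicate 3 of UM-UC-3 or replicate 2 of T24.

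Knockdown of ACAT1 was compared with siNC to ask whether the folding genes respond to it. Taken over both siRNAs and both lines, 4 genes were higher and 3 were lower in the fit with the block, by at most 0.51 on the log2 scale, and HSPA5 and the sensors were not called. The degradation gene EDEM2, the COPII coat genes SEC24D and SEC23B and the Golgi gene SDF4 were higher, and the BiP partners MANF and HYOU1 and the degradation gene DERL2 were lower. In the fit without the block 0 of the 32 genes tested were called (edgeR quasi-likelihood test, Benjamini-Hochberg adjusted p under 0.05), against 0.223% of all 20144 genes tested, and 3 had an unadjusted p under 0.05. DESeq2 called 1. The share of all genes that DESeq2 called is not given, here and below, so its counts cannot be set against that share. With the block 7 were called (edgeR), against 12.4% of all genes, with 4 higher against 5.95% and 3 lower against 6.46%. Without the 3 libraries of UM-UC-3 replicate 3, EDEM2 (0.50, adjusted p = 0.022), DERL2 (-0.47, 0.0089) and MANF (-0.37, 0.024) were called with the block and the other 4 of the 7 were not. Without the 3 libraries of T24 replicate 2 the 7 genes were EDEM2 (0.53, adjusted p = 0.0026), SEC24D (0.395, 0.016), SDF4 (0.29, 0.0090), SEC23B (0.27, 0.038), HYOU1 (-0.37, 0.0039), DERL2 (-0.46, 0.0019) and MANF (-0.495, 0.0088), the same 7 that were called with no library left out. Over the 32 genes the median log2 fold change was 0.04, against 0.00 over all genes tested, and DERL3, a Derlin with at most 0.049 RPKM in any library, was left out by the filter on low counts. Replicate libraries may share more than the labels say, so the p values measure only the spread between these libraries.

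**Figure D1:**
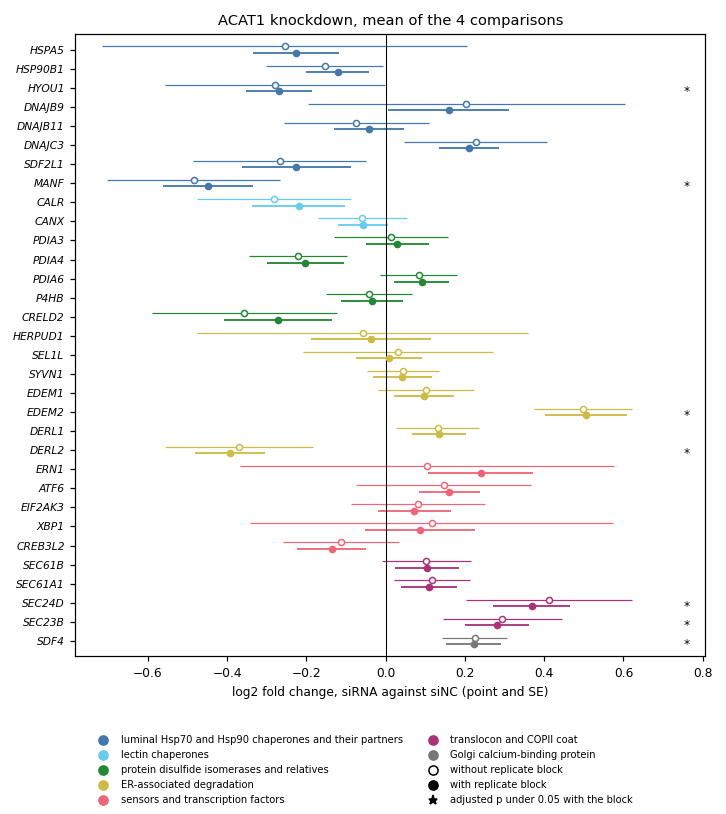
Log2 fold change of each tested gene for ACAT1 siRNA against siNC, mean of the 4 knockdown comparisons (point) with its SE (line), without the replicate block (open) and with it (filled), coloured by role. The 7 genes with a star had an adjusted p under 0.05 with the block, from -0.45 (MANF) to 0.51 (EDEM2), and the lines of HSPA5, XBP1 and ERN1 without the block are the widest among their roles.

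Of the 8 luminal Hsp70 and Hsp90 chaperones and their partners, 0 were called without the block and 2 were called with it, MANF and HYOU1, both lower. HSPA5 encodes BiP. Its RPKM in replicates 1, 2 and 3 of UM-UC-3 cells, the order used for every gene here, was 373, 147 and 1321 with siNC, 283, 140.4 and 1308 with siACAT1-1 and 185, 168 and 704 with siACAT1-2. In T24 cells it was 211, 419 and 272 with siNC, 156, 389 and 193 with siACAT1-1 and 281, 465 and 261 with siACAT1-2. Replicate 3 of UM-UC-3 was the highest of its group each time, all groups of a line overlapped, and 9 of the 12 same-numbered pairs were lower with siRNA. The log2 fold change was -0.25 ± 0.46 (adjusted p = 0.918) without the block and -0.23 ± 0.11 (adjusted p = 0.187) with it, and without replicate 3 of UM-UC-3 with siNC the fit without the block gave 0.35. With the block HSPA5 was called in 1 of the 18 fits that left out 1 library, without replicate 2 of UM-UC-3 with siACAT1-2 (-0.32, adjusted p = 0.013).

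HSP90B1, the ER Hsp90 GRP94, stood at 897, 798 and 1797 RPKM with siNC in UM-UC-3 cells, at 841, 785 and 1331 with siACAT1-1 and at 886, 794 and 970.4 with siACAT1-2. In T24 cells it stood at 526, 496 and 527, at 432, 491 and 512 and at 546, 568 and 591, where the siACAT1-2 libraries lay above all siNC libraries. Within UM-UC-3 replicate 3 was again the highest library of every group and the groups overlapped, with a log2 fold change of -0.12 ± 0.08 with the block (adjusted p = 0.357).

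HYOU1 encodes GRP170, which exchanges the nucleotide of BiP. It stood at 101, 78.9 and 271 RPKM with siNC in UM-UC-3 cells, 96.3, 76.3 and 236 with siACAT1-1 and 74.2, 69.7 and 141 with siACAT1-2. In T24 cells the values were 32.6, 43.8 and 36.3 with siNC, 24.9, 47.4 and 28.3 with siACAT1-1 and 22.1, 52.7 and 28.6 with siACAT1-2. It was lower with siRNA in 10 of 12 same-numbered pairs, the exceptions being replicate 2 of T24 with either siRNA. The log2 fold change was -0.28 ± 0.28 without the block (adjusted p = 0.785), where it turned to 0.077 without replicate 3 of UM-UC-3 with siNC, and -0.27 ± 0.08 with it (adjusted p = 0.040). The call with the block remained in 7 of the 18 fits that left out 1 library, where the value ran from -0.37 to -0.20 and the adjusted p up to 0.221 (without replicate 1 of T24 with siNC). Each of 11 libraries decided it, namely replicates 1 and 3 of all T24 groups, replicates 1 and 3 of UM-UC-3 with siNC, replicates 1 and 2 with siACAT1-1 and replicate 3 with siACAT1-2, and it was also lost without the 3 libraries of UM-UC-3 replicate 3 (-0.21, adjusted p = 0.177).

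MANF encodes a small ER protein that binds BiP and can be secreted. It stood at 67.0, 52.4 and 147 RPKM with siNC in UM-UC-3 cells, 42.1, 44.3 and 110.2 with siACAT1-1 and 55.4, 50.8 and 60.2 with siACAT1-2, and at 77.6, 80.2 and 62.1, at 39.0, 62.0 and 37.6 and at 71.5, 74.4 and 52.7 in the same groups of T24 cells. It was lower than siNC of its number in 12 of 12 pairs, although the groups overlapped in UM-UC-3 cells and, with siACAT1-2, in T24 cells. In T24 cells with siACAT1-1 the highest library (62.0) was just below the lowest siNC library (62.1). The log2 fold change was -0.48 ± 0.22 without the block (adjusted p = 0.433) and -0.45 ± 0.11 with it (adjusted p = 0.013). Over 24 alternatives without the block it ran from -0.63 to -0.21, the latter without replicate 3 of UM-UC-3 with siNC, and 1 of them, with no filter on low counts, passed the threshold (adjusted p = 0.033). It remained called with the block in 16 of 18 fits that left out 1 library and was lost without replicate 3 of UM-UC-3 with siNC (-0.36, adjusted p = 0.085) and without replicate 1 of T24 with siNC (-0.41, adjusted p = 0.063), and without the 3 libraries of UM-UC-3 replicate 3 it was called at -0.37 (adjusted p = 0.024).

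The other partners were not called with the siRNAs. The J-domain proteins DNAJB9, DNAJB11 and DNAJC3, which hand clients to BiP, and SDF2L1, which works with DNAJB11, had log2 fold changes between -0.23 and 0.21 with the block. DNAJC3 was higher in 11 of 12 pairs (0.21 ± 0.08, adjusted p = 0.074 with the block). Over UM-UC-3 libraries DNAJB9 ranged from 2.04 to 8.24 RPKM, DNAJB11 from 69.8 to 161, DNAJC3 from 6.97 to 17.1 and SDF2L1 from 12.96 to 39.9, and in T24 cells from 1.69 to 9.41, from 43.7 to 64.8, from 4.93 to 8.89 and from 9.44 to 19.7. DNAJB11 shares 23.2% of its exon bases with genes of either strand in the table (RP11-134F2.8, RP11-573D15.8 and TBCCD1), and since the strand setting of the counting is not given in the sources used here, reads of such genes cannot be told apart.

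The lectin chaperones calreticulin (CALR) and calnexin (CANX), which hold newly made glycoproteins, were not called in the mean of the knockdown comparisons. CALR ranged from 1077 to 3098 RPKM in UM-UC-3 and from 371 to 640 in T24 cells, and CANX from 305 to 501 and from 142 to 212. CALR was 3098 in replicate 3 of UM-UC-3 with siNC, 2115 in replicate 3 with siACAT1-1 and 1199 in replicate 3 with siACAT1-2, and no such order appeared in the other replicates. With the block the log2 fold changes were -0.22 ± 0.12 for CALR (adjusted p = 0.244) and -0.06 ± 0.06 for CANX (adjusted p = 0.634).

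Among the 5 protein disulfide isomerases and relatives, 0 were called in the mean of the knockdown comparisons in either fit, and PDIA6 was called in 1 of the single comparisons. PDIA6 stood at 49.8, 42.4 and 45.4 RPKM with siNC in T24 cells, 48.8, 47.6 and 47.5 with siACAT1-1 and 66.5, 58.9 and 64.5 with siACAT1-2. The siACAT1-2 libraries of T24 all lay above the others (log2 fold change against siNC 0.49 ± 0.11, adjusted p = 0.011 with the block, 0.314 without). In UM-UC-3 cells it stood at 86.6, 85.3 and 121 with siNC, 87.2, 85.3 and 101 with siACAT1-1 and 98.1, 90.5 and 87.1 with siACAT1-2, where the groups overlapped. PDIA6 shares 25.2% of its exon bases with ATP6V1C2 on the other strand and PDIA3 shares 18.9% with CATSPER2P1, ELL3 and RP11-296A16.1.

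PDIA4, the isomerase ERp72, was not called against siNC in either fit, and the siRNAs lay on different sides of siNC in T24 cells. It stood there at 96.6, 81.2 and 94.0 RPKM with siNC, at 60.6, 71.2 and 61.2 with siACAT1-1 and at 112, 94.8 and 123 with siACAT1-2, so the siACAT1-1 libraries lay below all others. In UM-UC-3 cells the values were 162, 145 and 261, then 131, 132 and 171, then 176, 153 and 136, with overlapping groups. The mean of the 4 comparisons was -0.20 ± 0.10 with the block (adjusted p = 0.189). PDIA3, the partner of the lectin chaperones, P4HB, the archetype of the family, and CRELD2 ranged in UM-UC-3 cells from 85.9 to 167, from 55.3 to 89.3 and from 5.67 to 23.99 RPKM and in T24 cells from 63.5 to 103, from 64.8 to 107 and from 4.71 to 7.69.

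EDEM2 showed the largest change among the 32 genes. It trims the first mannose from glycoproteins that are sent to degradation. In UM-UC-3 cells it stood at 3.29, 3.05 and 3.85 RPKM with siNC, 3.29, 3.35 and 4.20 with siACAT1-1 and 5.58, 5.13 and 6.27 with siACAT1-2. In T24 cells it stood at 3.13, 4.46 and 5.58 with siNC, 4.54, 5.39 and 5.20 with siACAT1-1 and 9.15, 7.35 and 8.94 with siACAT1-2. In both lines the siACAT1-2 libraries lay above all siNC and siACAT1-1 libraries, and the siACAT1-1 libraries overlapped with siNC.

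With siACAT1-2 the log2 fold change of EDEM2 in T24 cells was 0.99 ± 0.20, called both without the block (adjusted p = 0.047) and with it (1.00 ± 0.16, adjusted p = 0.00068). Without the block that call was kept in 2 of 25 alternatives, with adjusted p from 0.00044 to 0.343 and values from 0.82 to 1.15, and the leave-one-out fits with the block kept it in 18 of 18. In UM-UC-3 cells the same siRNA gave 0.70 ± 0.20 without the block (adjusted p = 0.737) and 0.70 ± 0.17 with it (adjusted p = 0.037). The mean of the 4 comparisons was 0.50 ± 0.12 without the block (adjusted p = 0.116, and 0.0088 with DESeq2) and 0.51 ± 0.10 with it (adjusted p = 0.0031), which remained called in 18 of 18 fits that left out 1 library.

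DERL2, a Derlin of the channel that moves proteins out of the ER, was lower with the block in T24 cells with each siRNA (-0.50 ± 0.15, adjusted p = 0.027, with siACAT1-1 and -0.52 ± 0.15, adjusted p = 0.030, with siACAT1-2) but not called in UM-UC-3 cells with siACAT1-1 (-0.024 ± 0.15, adjusted p = 0.966) or siACAT1-2 (-0.52 ± 0.15, adjusted p = 0.087). It stood at 5.02, 3.45 and 3.80 RPKM with siNC in UM-UC-3 cells, 4.73, 3.02 and 4.45 with siACAT1-1 and 2.62, 2.56 and 3.59 with siACAT1-2. In T24 cells it stood at 4.54, 6.85 and 4.05 with siNC, 2.83, 6.06 and 2.49 with siACAT1-1 and 2.76, 5.27 and 2.84 with siACAT1-2. It was lower in 11 of 12 same-numbered pairs, while by group the siNC and siRNA libraries overlapped in T24 cells and, with siACAT1-1 and siACAT1-2, in UM-UC-3 cells. In the mean of the 4 comparisons it was -0.37 ± 0.19 without the block (adjusted p = 0.500) and -0.39 ± 0.09 with it (adjusted p = 0.0061), and with the block it remained called in 18 of 18 fits that left out 1 library (-0.47 to -0.32).

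The remaining degradation genes were not called in the mean of the knockdown comparisons. HERPUD1, a scaffold of the degradation ligase, stood at 9.86, 2.81 and 8.79 RPKM with siNC in UM-UC-3 cells, 6.87, 2.11 and 12.3 with siACAT1-1 and 3.06, 2.69 and 8.93 with siACAT1-2, and at 1.01, 5.99 and 2.91, at 1.73, 6.37 and 3.28 and at 1.96, 5.90 and 3.02 in T24 cells. Its log2 fold change was -0.04 ± 0.15 with the block (adjusted p = 0.932), and its sign changed in several fits. EDEM1, a relative of EDEM2, stood at 1.28, 1.28 and 1.74 RPKM with siNC in UM-UC-3 cells, 2.04, 1.58 and 2.20 with siACAT1-1 and 1.54, 1.21 and 1.68 with siACAT1-2, and at 2.25, 3.22 and 2.71, at 2.57, 3.78 and 2.93 and at 1.73, 2.83 and 2.37 in T24 cells. Every siACAT1-2 library was below the siACAT1-1 library of its number. SEL1L and SYVN1, the core of the ligase complex, ranged over both lines from 4.22 to 11.6 and from 8.94 to 13.7 RPKM, DERL1 from 4.65 to 8.93, and their log2 fold changes lay between 0.01 and 0.13 with the block.

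**Figure D2:**
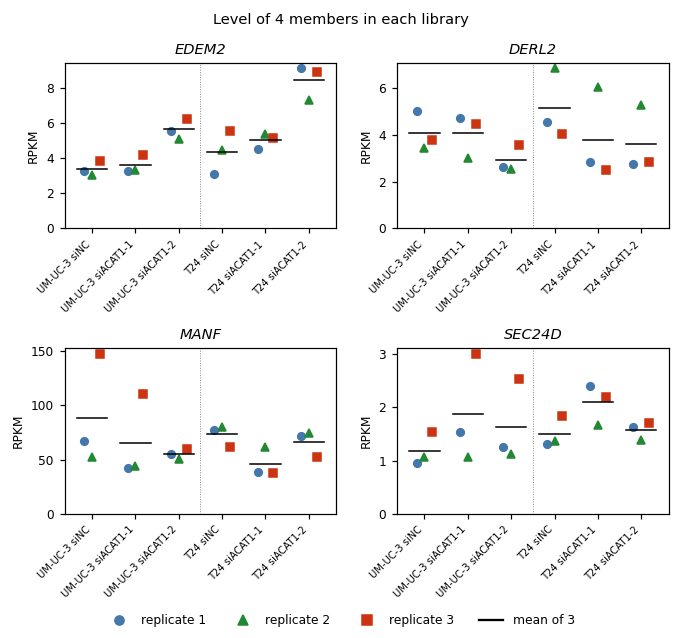
RPKM of EDEM2, DERL2, MANF and SEC24D in each of the 18 libraries by group, with a symbol for each replicate number and a line at the mean of the 3 libraries. EDEM2 is highest in the siACAT1-2 groups of both lines (up to 9.15), and MANF and SEC24D in UM-UC-3 are spread mainly by replicate 3.

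The sensors and transcription factors were not called in the mean of the knockdown comparisons in either fit. ERN1, the gene of IRE1, stood at 0.346, 0.227 and 0.733 RPKM with siNC in UM-UC-3 cells, 0.522, 0.324 and 0.955 with siACAT1-1 and 0.235, 0.337 and 0.545 with siACAT1-2. In T24 cells it stood at 0.254, 2.35 and 0.453, at 0.490, 2.07 and 0.615 and at 0.342, 2.27 and 0.684. The 3 replicate 2 libraries of T24 lay between 2.07 and 2.35 and the other T24 libraries at or below 0.684. In the knockdown its log2 fold change was 0.10 ± 0.47 without the block and 0.24 ± 0.13 with it (adjusted p = 0.990 and 0.263).

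XBP1, the factor made by IRE1 splicing, stood at 35.6, 18.5 and 40.8 RPKM with siNC in UM-UC-3 cells, 55.3, 15.4 and 78.6 with siACAT1-1 and 18.5, 16.6 and 64.1 with siACAT1-2. In T24 cells it stood at 18.0, 143 and 65.5, at 28.5, 139 and 54.5 and at 22.3, 118 and 56.9. In T24 cells the libraries ranked by replicate number in the same order in all 3 groups, with replicate 2 highest and replicate 1 lowest. With the block its log2 fold change was 0.09 ± 0.14 (adjusted p = 0.764).

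ATF6 stood at 3.30, 2.51 and 6.38 RPKM with siNC in UM-UC-3 cells, 4.23, 2.84 and 6.58 with siACAT1-1 and 3.09, 2.84 and 5.74 with siACAT1-2, and at 3.42, 5.97 and 4.60, at 4.99, 6.98 and 5.06 and at 3.37, 7.47 and 5.30 in T24 cells (log2 fold change 0.16 ± 0.08 with the block, adjusted p = 0.185). EIF2AK3, the gene of PERK, stood at 5.28, 4.97 and 5.66, at 7.30, 4.77 and 7.99 and at 5.10, 5.03 and 8.65 RPKM in UM-UC-3 cells and at 2.37, 3.36 and 1.79, at 2.15, 2.904 and 1.43 and at 2.07, 3.20 and 2.26 in T24 cells (0.07 ± 0.09, adjusted p = 0.683). For both sensors siNC and siRNA libraries overlapped in each line. EIF2AK3 shares 15.1% of its exon bases with AC062029.1 and AC104134.2 on the other strand.

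CREB3L2, a membrane-bound relative of ATF6 that serves secretory load, was lower in T24 cells with siACAT1-1. It stood there at 4.56, 4.07 and 5.37 RPKM with siNC, 2.80, 3.30 and 2.903 with siACAT1-1 and 3.42, 4.57 and 4.39 with siACAT1-2, and at 2.23, 2.01 and 2.56, at 2.31, 1.72 and 3.70 and at 2.30, 2.00 and 3.60 in UM-UC-3 cells. In T24 cells the siACAT1-1 libraries lay below all siNC libraries (log2 fold change -0.63 ± 0.14, adjusted p = 0.0058 with the block, 0.306 without). The mean of the 4 comparisons was -0.14 ± 0.09 with the block (adjusted p = 0.340).

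SEC24D and SEC23B, which form the inner COPII coat of vesicles that leave the ER, were higher with the siRNAs. SEC24D stood at 0.961, 1.07 and 1.53 RPKM with siNC in UM-UC-3 cells, 1.53, 1.07 and 3.01 with siACAT1-1 and 1.26, 1.13 and 2.53 with siACAT1-2, and at 1.32, 1.36 and 1.84, at 2.41, 1.67 and 2.20 and at 1.63, 1.39 and 1.71 in T24 cells. It was higher in 10 of 12 same-numbered pairs, with overlapping groups, and its log2 fold change was 0.41 ± 0.21 without the block (adjusted p = 0.504) and 0.37 ± 0.10 with it (adjusted p = 0.016). With the block 3 libraries decided the call. It was lost without replicate 1 of UM-UC-3 with siNC (0.36, adjusted p = 0.057), without replicate 3 of the same group (0.27, adjusted p = 0.109) and without replicate 1 of T24 with siNC (0.29, adjusted p = 0.106). Without the 3 libraries of UM-UC-3 replicate 3 it was 0.27 (adjusted p = 0.136).

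SEC23B was higher in 12 of 12 pairs. It stood at 4.33, 4.26 and 4.22 RPKM with siNC in UM-UC-3 cells, 5.59, 4.29 and 6.80 with siACAT1-1 and 4.72, 4.64 and 6.75 with siACAT1-2, where only 1 siRNA library (4.29) lay below the highest siNC library (4.33), and at 6.43, 10.1 and 6.35, at 9.05, 12.1 and 8.12 and at 6.55, 12.1 and 6.51 in T24 cells. Its log2 fold change was 0.29 ± 0.15 without the block (adjusted p = 0.503) and 0.28 ± 0.08 with it (adjusted p = 0.027). It remained called with the block in 10 of 18 fits that left out 1 library (0.19 to 0.34, adjusted p up to 0.160, the highest without replicate 3 of UM-UC-3 with siNC). It was lost without replicate 1 or 3 of UM-UC-3 with siNC, replicate 3 with either siRNA, any T24 siNC library or replicate 1 of T24 with siACAT1-1, and it was 0.20 without the 3 libraries of UM-UC-3 replicate 3 (adjusted p = 0.194).

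The translocon genes SEC61A1 and SEC61B, whose proteins form the channel into the ER, were not called in the mean of the comparisons. SEC61A1 stood at 19.2, 21.2 and 19.8 RPKM with siNC in UM-UC-3 cells, 16.8, 19.5 and 25.6 with siACAT1-1 and 20.4, 22.2 and 25.7 with siACAT1-2, and at 19.8, 18.8 and 20.3, at 18.6, 20.9 and 17.3 and at 24.6, 25.6 and 23.7 in T24 cells, where the siACAT1-2 libraries lay above all others. SEC61B ranged from 7.59 to 12.1 RPKM in UM-UC-3 and from 15.6 to 27.0 in T24 cells.

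SDF4 encodes Cab45, a calcium-binding protein of the Golgi. It stood at 34.4, 44.6 and 36.4 RPKM with siNC in T24 cells, 52.0, 47.0 and 51.2 with siACAT1-1 and 48.9, 49.0 and 45.7 with siACAT1-2, and every siRNA library of T24 lay above every siNC library. In UM-UC-3 cells it stood at 29.1, 26.9 and 30.7, at 27.0, 30.1 and 30.6 and at 33.7, 33.2 and 31.3, where the siACAT1-1 libraries overlapped with siNC and the siACAT1-2 libraries lay above it. The log2 fold change was 0.22 ± 0.08 without the block (adjusted p = 0.316) and 0.22 ± 0.07 with it (adjusted p = 0.040). It remained called with the block in 6 of 18 fits that left out 1 library (0.18 to 0.29, adjusted p up to 0.1998, the highest without replicate 1 of T24 with siNC). It was lost without any UM-UC-3 siNC library, replicate 2 or 3 of UM-UC-3 with siACAT1-1, replicate 1 or 2 with siACAT1-2, replicate 1 or 3 of T24 with siNC or siACAT1-1, or replicate 1 of T24 with siACAT1-2, and it was 0.24 without the 3 libraries of UM-UC-3 replicate 3 (adjusted p = 0.084).

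By single comparison, 0 of the 32 genes were called for siACAT1-1 in the UM-UC-3 line in either fit, for siACAT1-2 in that line only EDEM2 was called and only with the block, and in T24 cells 5 were called for siACAT1-1 and 3 for siACAT1-2 with the block. Without the block edgeR called 0 for siACAT1-1 in UM-UC-3 (0.00993% of all genes called, 1 of the 32 with an unadjusted p under 0.05), 0 for siACAT1-2 in UM-UC-3 (0.0546% of all genes, 2 unadjusted), 0 with siACAT1-1 in T24 cells (0.124% of all genes, 3 unadjusted) and 1, EDEM2, with siACAT1-2 in T24 cells (0.268% of all genes), and DESeq2 called 0, 0, 0 and 1. With the block the counts were 0 (3.06% of all genes, 8 of the 32 unadjusted), 1 (1.36%), 5 (13.9%) and 3 (8.48%). The 5 and 3 in T24 cells are 15.6% and 9.38% of the 32, near the shares of all genes. The 5 genes of siACAT1-1 in T24 cells were MANF, DERL2 and CREB3L2, which were lower, and SEC24D and SDF4, which were higher, and the 3 of siACAT1-2 were EDEM2 and PDIA6, higher, and DERL2, lower. The comparisons within a line share their siNC libraries.

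The mean knockdown effect in UM-UC-3 cells minus that in T24 cells asks whether the lines differ in their response. Of the 32 genes 0 were called by edgeR without the block (0% of all genes, 0 of the 32 with an unadjusted p under 0.05), 0 with the block (0.104% of all genes, 5 unadjusted) and 0 by DESeq2. No difference between the lines was therefore detectable in a single gene with 3 libraries a group. The median difference over the 32 was -0.17 without the block and -0.15 with it, against -0.0033 and -0.0067 over all genes, and 24 of 32 and 25 of 32 were below 0. The share of all genes below 0 is not given. Over the 18 fits with the block that left out 1 library the median ran from -0.24 to -0.040, the latter without replicate 3 of UM-UC-3 with siACAT1-2.

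The siRNAs were compared with each other without the siNC libraries, siACAT1-2 minus siACAT1-1 over both lines. EDEM2 was higher with siACAT1-2 by 0.69 ± 0.14 on the log2 scale (adjusted p = 0.016 without the block, 0.00034 with it), and it was higher in 6 of 6 same-numbered pairs. Without the block it was the only 1 of the 32 genes called, against 2.56% of all genes. Its adjusted p ran up to 0.057 over 24 alternatives without the block, 20 of which kept the call, and it was 0.054 without the 3 libraries of UM-UC-3 replicate 3. With the block 5 of the 32 were called against 20.6% of all genes, with 4 higher against 10.4% and 1 lower against 10.2%.

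The 4 that were higher with siACAT1-2 were EDEM2, PDIA4 (0.43 ± 0.11, adjusted p = 0.010), P4HB (0.31 ± 0.09, adjusted p = 0.018) and SEC61A1 (0.25 ± 0.08, adjusted p = 0.034), and EDEM1 was lower (-0.43 ± 0.09, adjusted p = 0.0016), each in edgeR with the block. EDEM1 was lower in 6 of 6 same-numbered pairs and SEC61A1 was higher in 6 of 6. P4HB is named because it was called here, a choice made after its values were seen. The 2 mannosidase-related genes EDEM1 and EDEM2 thus moved in opposite directions between the siRNAs. Within UM-UC-3 cells 0 were called without the block (0.0496% of all genes, 2 of the 32 unadjusted, DESeq2 0) and 3 with it (8.15% of all genes), namely EDEM2 higher and EDEM1 and DERL2 lower. Within T24 cells 0 were called without the block (0.968% of all genes, 6 unadjusted, DESeq2 2) and 7 with it (14.7% of all genes), with EDEM1 lower and PDIA4, PDIA6, P4HB, EDEM2, CREB3L2 and SEC61A1 higher. PDIA4 differed most in T24 cells, by 0.77 ± 0.16 (adjusted p = 0.0030 with the block, 0.082 without).

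The siNC libraries of the lines were compared to give the levels without knockdown. UM-UC-3 cells had higher RNA of HYOU1, HSP90B1, both lectin chaperones and 4 of the 5 isomerases, while T24 cells had higher RNA of EDEM1, CREB3L2, SEC61B, SEC23B and SDF4. In the fit without the block, which is used for this comparison, 15 of the 32 genes were called, against 44.3% of all genes, so the share was near that of all genes. Of these 15 genes 10 were higher in UM-UC-3 cells, against 22% of all genes, and 5 were lower, against 22.3%. With the replicate number as a block 14 were called, against 47.9% of all genes. Of the 14, 9 were higher in UM-UC-3 cells, against 24.03% of all genes, and 5 were lower, against 23.9%. CRELD2, counted with the isomerases, was lost with the block (adjusted p = 0.0502). Culture medium differed between the lines and cannot be told apart from the line.

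By role, the 10 genes higher in UM-UC-3 cells were 3 chaperones (HYOU1 at 2.04 ± 0.47 on the log2 scale, adjusted p = 0.0023, HSP90B1 at 1.21 ± 0.25 and DNAJB11 at 0.93 ± 0.30), both lectin chaperones (CALR at 1.93 ± 0.33 and CANX at 1.25 ± 0.19), 4 isomerases (PDIA6 at 1.13 ± 0.16, PDIA4 at 1.09 ± 0.21, CRELD2 at 1.09 ± 0.39 and PDIA3 at 0.76 ± 0.24) and the sensor EIF2AK3 (1.13 ± 0.28). The 5 lower ones were CREB3L2 (-0.999 ± 0.24), EDEM1 (-0.88 ± 0.20), SEC61B (-0.83 ± 0.18), SEC23B (-0.78 ± 0.24) and SDF4 (-0.36 ± 0.13). Mean RPKM with siNC in UM-UC-3 and T24 cells was 1854 ± 1088 and 496 ± 89.8 for CALR, 1164 ± 550 and 516 ± 17.3 for HSP90B1, 392 ± 94.9 and 169 ± 12.9 for CANX and 150.3 ± 105 and 37.6 ± 5.71 for HYOU1 (SD, n = 3). For HSPA5 it was 614 ± 623 and 301 ± 107, which was not called (1.07 ± 0.77, adjusted p = 0.278).

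Of these 15 genes CRELD2 overlapped between the lines in siNC libraries and the others did not. They were selected as called from the same libraries, so the lack of overlap is no separate result. Without the UM-UC-3 replicate 3 libraries 12 genes were called, with DNAJB11 (0.48, adjusted p = 0.076), PDIA3 (0.42, 0.120) and CRELD2 (0.29, 0.327) lost. Without the T24 replicate 2 libraries 13 were called, with PDIA3 (0.62, adjusted p = 0.058), CRELD2 (1.12, 0.064) and SDF4 (-0.31, 0.083) lost and HERPUD1 gained (1.88, 0.047). The share of all genes called in these fits is not given, so they show only which genes kept the call.

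**Figure D3:**
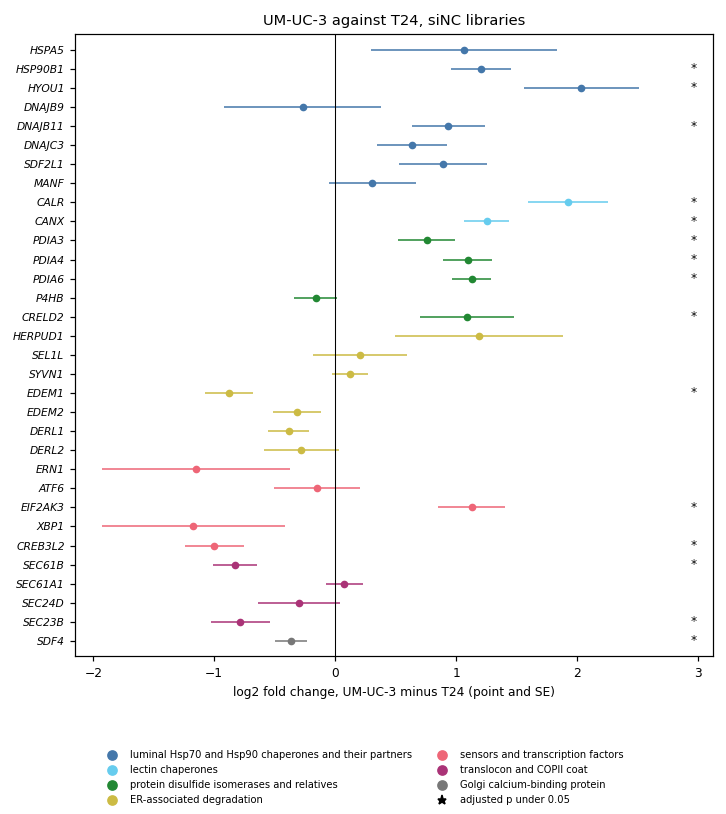
Log2 fold change of each tested gene in siNC libraries, UM-UC-3 minus T24 (point) with its SE (line), coloured by role. The 15 genes with a star had an adjusted p under 0.05, 10 to the right of 0 and 5 to the left, and HSPA5, XBP1 and ERN1 have wide lines.

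The replicate number within a line was called for more of these genes than any siRNA comparison was. In UM-UC-3 cells replicate 3 had the highest RNA of HSPA5, HYOU1, XBP1, HERPUD1 and the other luminal chaperones on average over the groups, and in T24 cells replicate 2 had the highest RNA of ERN1, XBP1, DNAJB9, HERPUD1 and HSPA5 but not of most isomerases. In the block model the replicate number was called for 20 of the 32 genes in UM-UC-3 cells (F test of the number terms, edgeR, adjusted p under 0.05), against 24.6% of all genes. In T24 cells it was called for 16 of 32 (50%), near the 43.9% of all genes. All 20 were higher in replicate 3 of UM-UC-3 than in the mean of replicates 1 and 2, against 12% of all genes called and higher and 12.6% called and lower. In T24 cells 15 were higher in replicate 2 than in the mean of replicates 1 and 3, against 22.2% of all genes, and 1, PDIA3, was lower, against 21.7%. These replicates were singled out after their values were seen. The F test asks whether any of the numbers of a line differ. Its adjusted p therefore does not test replicate 3 or replicate 2 against the mean of the others. SDF2L1, counted as higher in T24 replicate 2 (0.24, F test adjusted p = 0.046), stood at -0.10 in replicate 2 and -0.68 in replicate 3 against replicate 1.

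**Figure D4:**
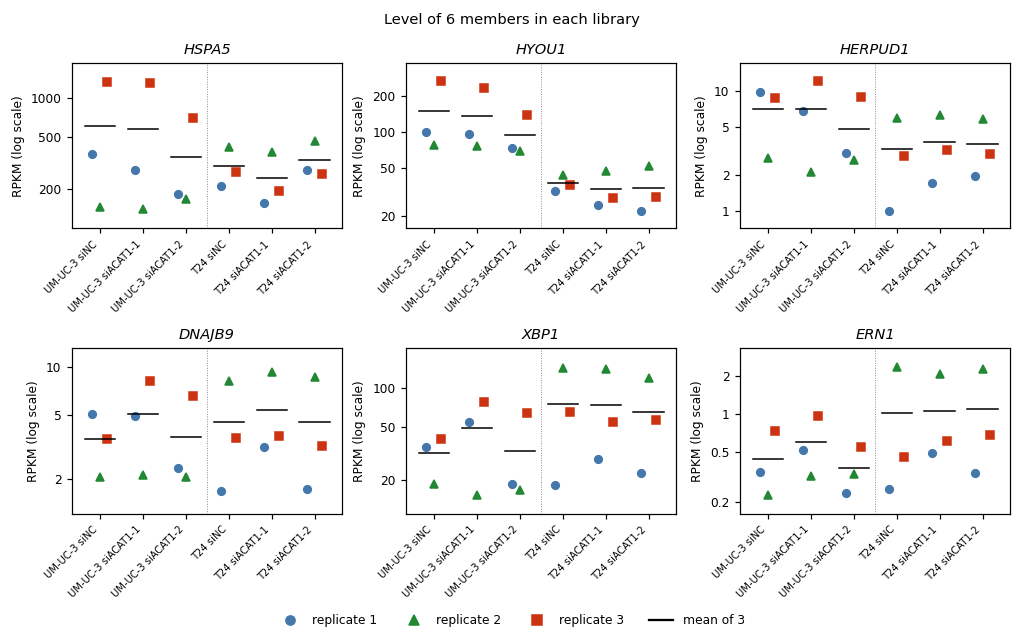
RPKM on a log axis of HSPA5, HYOU1, HERPUD1, DNAJB9, XBP1 and ERN1 in each library by group, with a symbol for each replicate number and a line at the mean of the 3 libraries. Replicate 3 lies above the other UM-UC-3 libraries for HSPA5 (up to 1321) and HYOU1, and replicate 2 lies above the other T24 libraries for all 6 genes.

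Over the 32 genes, the difference of UM-UC-3 replicate 3 from the mean of the other numbers had a median of 0.62 on the log2 scale, against 0.01 over all genes, and all 32 were above 0. HSPA5 differed by 2.35, which is 5.10-fold (F test of the number terms, adjusted p = 2.0e-08, as for the genes that follow). HYOU1 differed by 1.31 (4.3e-07), HERPUD1 by 1.29 (4.3e-05), XBP1 by 1.27 (5.2e-05), ERN1 by 1.13 (0.00038) and ATF6 by 0.97 (3.6e-06). All 8 luminal chaperones and partners, both lectin chaperones and all 5 sensors and transcription factors were called, but of the 5 isomerases only PDIA3 and CRELD2, of the 7 degradation genes tested only HERPUD1 and SEL1L, and of the translocon and coat genes only SEC24D. Replicate 3 was the highest library in all 3 UM-UC-3 groups for 19 of the 32 genes (59.4%), against 19.4% of all genes tested.

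In T24 cells the median difference of replicate 2 from the mean of the other numbers was 0.26, against 0.00 over all genes, with 20 of 32 above 0. ERN1 differed by 2.21, which is 4.63-fold (F test of the number terms, adjusted p = 2.1e-08, as for the genes that follow). XBP1 differed by 1.76 (4.3e-07), DNAJB9 by 1.58 (8.0e-06), HERPUD1 by 1.395 (2.5e-05), SEL1L by 0.85 (2.0e-05), DERL2 by 0.83 (6.0e-05) and HSPA5 by 0.82 (0.00063). Of the 8 luminal chaperones and partners 5 were called, of the 7 degradation genes 5 and of the 5 sensors and transcription factors 4, while 0 of the 2 lectin chaperones and 1 of the 5 isomerases were called. CALR (-0.06), HSP90B1 (-0.11), PDIA4 (-0.20) and PDIA6 (-0.21) lay below 0 in replicate 2 of T24, where the same values in replicate 3 of UM-UC-3 were 0.75, 0.64, 0.27 and 0.17 and the last 2 were not called. Replicate 2 was the highest library in all 3 T24 groups for 16 of the 32 genes (50%), against 26.0% of all genes, and 11 genes did so in both lines.

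**Figure D5:**
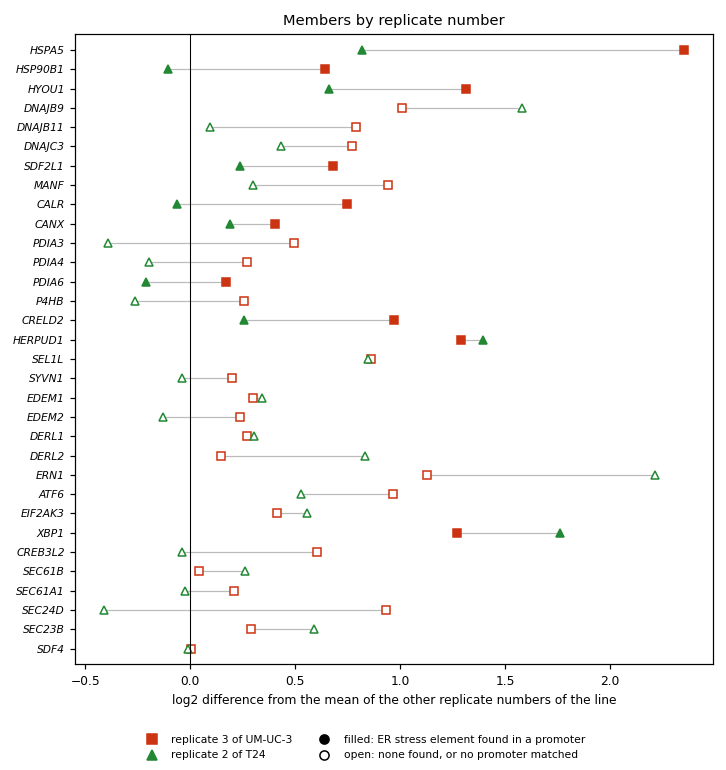
Log2 difference of replicate 3 of UM-UC-3 (squares) and replicate 2 of T24 (triangles) from the mean of the other numbers of the same line for each tested gene, filled where an ER stress element or element II was found in a promoter. The squares reach 2.35 for HSPA5 and are above 0 for all 32 genes, and the triangles reach 2.21 for ERN1 and lie below 0 for 12.

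The 10 genes with an ER stress element or element II in a promoter had a median difference of 0.86 in replicate 3 of UM-UC-3 (0.17 to 2.35), and the 19 matched and tested genes without one had a median of 0.30 (0.00 to 1.13). In replicate 2 of T24 the medians were 0.25 (-0.21 to 1.76) and 0.30 (-0.26 to 2.21). In the mean of the knockdown comparisons they were -0.20 (-0.36 to 0.12) and 0.10 (-0.48 to 0.50). These are descriptions of 10 and 19 genes, with no test.

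The PERK targets ATF4 and DDIT3 (CHOP, a factor linked to cell death in prolonged stress) were followed with the list of other ER genes. DDIT3 stood at 336, 30.5 and 563 RPKM with siNC in UM-UC-3 cells, at 351, 31.5 and 668 with siACAT1-1 and at 54.6, 39.3 and 456 with siACAT1-2, and at 13.8, 201 and 44.2, at 31.4, 134 and 36.5 and at 26.1, 218 and 45.002 in T24 cells. Replicate 3 of UM-UC-3 and replicate 2 of T24 were again the highest of each group. They differed from the mean of the other numbers by 2.62 and 2.45 on the log2 scale (F test of the number terms, adjusted p = 2.4e-06 and 7.0e-06). ATF4 stood at 265, 141 and 336, at 218, 116 and 302 and at 137, 109 and 287 RPKM in UM-UC-3 cells, and at 102, 303 and 321, at 104, 249.8 and 272 and at 131, 261 and 271 in T24 cells, where replicates 2 and 3 were alike.

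In the mean of the 4 knockdown comparisons DDIT3 had a log2 fold change of -0.05 ± 0.22 with the block (adjusted p = 0.934) and ATF4 of -0.24 ± 0.08 (adjusted p = 0.05003, just above the threshold). Of the 118 other ER genes, 116 were tested. Without the block edgeR called 0 and DESeq2 called 1, and with the block 14 were called, 8 higher and 6 lower, against the same 12.4% of all genes. By smallest adjusted p in that fit they were led by the stress protein NUPR1 (-1.24 ± 0.22, adjusted p = 0.0012), RPN2 of oligosaccharyltransferase (0.32 ± 0.06), the signal peptidase subunit SPCS3 (-0.36 ± 0.07), EDEM3 (0.48 ± 0.10), the thioredoxin-related TMX4 (-0.29 ± 0.07), the degradation lectin OS9 (0.27 ± 0.07), the mannosidase MAN1B1 (0.23 ± 0.06), PDIA5 (0.30 ± 0.09), the sulfhydryl oxidase QSOX1 (0.27 ± 0.08) and the prolyl isomerase FKBP7 (-0.34 ± 0.10).

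The 14 of 116 called are near the share of all genes called in that fit (12.4%, with 5.95% higher and 6.46% lower), so the counts by group of that list are a description. Of these groups, 4 of 21 other degradation genes were called and all 4 were higher, 3 of 15 other isomerases and oxidases were called with 2 higher, 2 of 7 other membrane-bound bZIP factors and their proteases were called and both were lower, and 2 of 18 translocation and signal peptide genes were called, 1 in each direction. Of 14 glycan genes RPN2 was called and of 7 prolyl isomerases FKBP7. Of the 10 PERK and ATF4 targets only NUPR1 was called. It stood at 4.55, 1.35 and 25.3, at 4.77, 1.80 and 17.5 and at 1.02, 1.68 and 15.4 RPKM in UM-UC-3 cells and at 0.113, 2.93 and 0.616, at 0.104, 1.22 and 0.112 and at 0.0607, 0.325 and 0.0888 in T24 cells, with replicate 3 of UM-UC-3 and replicate 2 of T24 the highest of each group. Of the other Hsp70 system, the other COPII and the calcium genes 0 of 6, 0 of 10 and 0 of 8 were called by edgeR.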

How the data were processed

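RNA from 18 libraries was sequenced with a stranded kit that adds molecular identifiers. The authors trimmed reads (Trimmomatic 0.36), aligned them to GRCh38 (STAR 2.5.3) and counted them on exons (featureCounts, Subread 1.5.1), and deposited raw counts per gene and RPKM values made from those counts. The annotation release, the strand and multimapping settings and the collapse of identifiers are not given in the sources used here.

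The deposited counts entered 1 edgeR model (version 4.0.16, R 4.3.3, TMM factors, filterByExpr, quasi-likelihood test) of 18 libraries in 6 groups. P values were adjusted by Benjamini-Hochberg over the 20144 genes kept, with 0.05 as the threshold. Alternatives were the replicate number within a line as a block, other size factors, no filter, DESeq2 1.42.0, single lines and left-out libraries. In the comparison between the lines the block was shared by both lines. The scripts were tested on simulated data. Deposited RPKM served for levels. Errors are SE for log2 fold changes and SD for levels. Depth ranged from 25163490 to 34417230 counted reads a library, which limits low genes most. Deviations from group means correlated in each of 9 same-numbered pairs per line (r at least 0.115, median 0.433, for UM-UC-3 and 0.356, median 0.524, for T24). In 18 pairs of different number per line r ran from -0.545 to 0.269 (median -0.110) for UM-UC-3, which overlapped, and from -0.567 to 0.210 (median -0.404) for T24. The numbers were taken to pair libraries within a line, from these values and not from the labels. No 2 replicates matched within counting noise (the lowest chi-square per degree of freedom was 11.8).

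The genes and lists were chosen with earlier results of these data known. Values in every library are given for genes called in any knockdown contrast in either fit (at most 12, by adjusted p in the mean of the 4) and for HSPA5, HSP90B1, HERPUD1, XBP1, ATF6, ERN1 and EIF2AK3. Named from the list of other ER genes were at most 10 called in that mean, with ATF4 and DDIT3.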

Additional observations from a re-analysis of the deposited data

How the results depend on the processing

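Counts of genes called are out of the 32 tested. With the replicate block the counts were 1 for siACAT1-2 in UM-UC-3, 5 and 3 for siACAT1-1 and siACAT1-2 in T24, 7 for the mean of the 4 comparisons, 5 between the siRNAs over both lines, 3 in UM-UC-3 and 7 in T24, and 14 of the other ER genes in the mean of the 4, against 0, 0, 1, 0, 1, 0, 0 and 0 without it, and the block changed no other count of these genes by over 1.5 times. Over all genes the block raised the calls from 2 to 617 and from 11 to 273 for siACAT1-1 and siACAT1-2 in UM-UC-3, from 25 to 2799 and from 54 to 1708 in T24, from 45 to 2500 in the mean of the 4, from 0 to 21 for the difference between the lines in the knockdown effect, and from 515 to 4141, from 10 to 1642 and from 195 to 2958 between the siRNAs. For siACAT1-2 in T24, DESeq2 size factors, total counts, no filter, the T24 libraries alone and leaving out replicate 3 of UM-UC-3 or replicate 2 of T24 each gave 0. No filter and DESeq2 gave 1 and 1 in the mean of the 4 (and 1 and 1 of the other ER genes) and 1 and 2 between the siRNAs in T24. The fits without replicate 3 of UM-UC-3 or replicate 2 of T24, and those that left out each library with the block, were added after seeing the data. The share of all genes called is not given for DESeq2, other size factors, no filter, single lines or fits with libraries left out, here and below. Their counts therefore show only how the calls moved and cannot be set against that share. Without replicate 3 of UM-UC-3 the siRNA count over both lines was 0. Without it and with the block the counts were 6 and 3 for siACAT1-1 and siACAT1-2 in T24, 3 in the mean of the 4 (7 other ER genes), 8 between the siRNAs over both lines and 8 in T24. Without replicate 2 of T24 the siRNA count in T24 was 2, and with the block the counts were 2 and 2 for siACAT1-1 and siACAT1-2 in UM-UC-3, 5 and 4 in T24, 7 in the mean of the 4 (23 other ER genes), and 5 over both lines, 5 in UM-UC-3 and 8 in T24 between the siRNAs.

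Leaving out 1 library, with or without the block, gave 0 to 2 genes for each siRNA in UM-UC-3, 0 to 7 and 0 to 3 for siACAT1-1 and siACAT1-2 in T24, 0 to 7 in the mean of the 4 (0 to 21 other ER genes), 0 to 11 between the siRNAs over both lines, 0 to 4 in UM-UC-3 and 0 to 9 in T24, 11 to 17 between the lines and 0 for the difference of the knockdown effect. The mean of the 4 changed sign for 7 genes that were not called without the block. Over these fits HSPA5 ran from -0.62 to 0.35, HSP90B1 from -0.26 to 0.061, HYOU1 from -0.44 to 0.077, HERPUD1 from -0.27 to 0.30, XBP1 from -0.11 to 0.52, ERN1 from -0.15 to 0.83 and EIF2AK3 from -0.021 to 0.19. Without replicate 3 of UM-UC-3 XBP1 was -0.12 and with the block -0.061, and EIF2AK3 was -0.00627 and -0.00309, and without replicate 2 of T24 HERPUD1 was 0.036 and 0.040. The cause was not tested. The count between the lines stayed within 1.5 times under every alternative run. For the replicate number the alternatives run were DESeq2 size factors, total counts and no filter on low counts, and no library was left out. With 3 libraries a group and replicate numbers this far apart, XBP1 and ERN1 passed the threshold in 0 of the fits run for the mean of the 4 and HSPA5 in 1.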
